A study of Mus musculus with 16 samples.

Results

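A mature miRNA can carry extra adenosines at its 3′ end that its hairpin does not encode, and reads of this kind (A-forms) were described here in mouse 3T9 fibroblasts, an immortalised embryo-derived line, as they left quiescence. The miRNAs were chosen by abundance: they had 200 CPM or more (CPM, reads scaled to a library's total) over all libraries pooled, and the deposited table had an A-form entry for them. Of 1167 miRNAs in the table, 570 had such an entry, and 112 reached 200 CPM. All but 6 of these 112 met both conditions and are the members. The 6 (miR-301a-3p, miR-3074-2-3p, miR-3074-5p, miR-320-3p, miR-484 and miR-574-5p) had no A-form entry. The A-form share is the percentage of a miRNA's reads that are A-forms. It was not used to choose the members beyond the need for an A-form entry, so the members' shares below leave out these 6. The ranking by gain between 0 and 12 h was used to choose which members are named, so that ranking is a description.

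Cells of every group were kept without serum for 72 h and then received complete medium with 10% fetal bovine serum. Small RNA was sequenced at 0 h (no serum given back) and at 1, 2, 4, 6, 8, 10 and 12 h, with 2 libraries at each time, 1 from each of 2 independent experiments. All groups are the same cell line with no genetic change named, so only time in serum and the experiment differ between libraries. Each experiment was read in its own sequencing run, so experiment and run cannot be told apart.

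Mature miRNAs guide Argonaute proteins to messenger RNAs through the seed, bases 2 to 8 from the 5′ end, while the 3′ end stays partly exposed to enzymes. Terminal nucleotidyltransferases add single bases there. GLD2 (TENT2) and related noncanonical poly(A) polymerases add adenosine, TUT4 and TUT7 add uridine, and exonucleases such as PARN can trim the added tail. Adenylation has been described as stabilising some miRNAs, such as miR-122 in liver, and as a step before trimming or decay for others, such as miR-21.

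The sequences below are the miRNAs on which the results turn, with the seed in capitals, written from 5′ to 3′ (RefSeq, GRCm38.p6). An A-form has A after the last letter that the hairpin does not encode. Where the hairpin itself continues with A, as for miR-221-3p, miR-196b-5p, miR-23a-3p and miR-199a-5p, a single A there would count as templated. The first set shows that members with an identical seed can differ most in their A-form share. The pairs and trios are miR-130b and miR-130a, then miR-125b, miR-351 and miR-125a, then miR-152, miR-148b and miR-148a, then miR-92b, miR-25 and miR-92a, and let-7i with let-7d.
miR-130b-3p: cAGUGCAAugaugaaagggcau
miR-130a-3p: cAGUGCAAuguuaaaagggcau
miR-125b-5p: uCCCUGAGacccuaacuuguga
miR-351-5p: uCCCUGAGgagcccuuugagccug
miR-125a-5p: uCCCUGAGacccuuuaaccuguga
miR-152-3p: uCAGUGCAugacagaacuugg
miR-148b-3p: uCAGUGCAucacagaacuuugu
miR-148a-3p: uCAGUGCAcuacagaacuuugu
miR-92b-3p: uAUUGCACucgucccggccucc
miR-25-3p: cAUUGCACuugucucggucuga
miR-92a-3p: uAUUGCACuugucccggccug
let-7i-5p: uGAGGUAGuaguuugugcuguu
let-7d-5p: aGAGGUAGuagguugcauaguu

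The second set holds miRNAs whose share moved with time, among them miR-221-3p and miR-222-3p, which share a seed and moved in opposite directions.
miR-221-3p: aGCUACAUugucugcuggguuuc
miR-222-3p: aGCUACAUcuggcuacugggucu
miR-191-5p: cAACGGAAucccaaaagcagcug
miR-196b-5p: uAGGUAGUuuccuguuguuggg
miR-23a-3p: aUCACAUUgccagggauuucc
miR-199a-5p: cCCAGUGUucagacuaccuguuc
miR-30c-5p: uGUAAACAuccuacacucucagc
miR-146b-5p: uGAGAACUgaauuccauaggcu

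Of the members, 95 matched a mature sequence in that table. miR-30b-5p, miR-143-3p, miR-145a-3p, miR-145a-5p, miR-151-3p, miR-151-5p, miR-23b-3p, miR-30d-5p, miR-328-3p, miR-421-3p and miR-532-5p are named only. In GRCm38, the hairpin of miR-130b lies at chr16:17124061-17124142 on the minus strand inside the protein-coding gene 2610318N02Rik, outside its annotated exons. That of miR-191 lies at chr9:108568319-108568392 on the plus strand, in an exon of the lincRNA 4833445I07Rik. The hairpins of miR-221 (chrX:19146294-19146388) and miR-222 (chrX:19146893-19146971) sit side by side on the minus strand in no annotated host gene. miR-146b lies at chr19:46342762-46342870 on the plus strand in Mfsd13a, outside its exons.

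Libraries held 5852087 to 7783249 miRNA reads. Fibroblast and mesenchymal marker miRNAs summed to 345222 to 405746 CPM, with 7 of 8 above 200 CPM, whereas blood markers summed to 2.01 to 4.03 CPM and miR-122-5p, the liver marker, to at most 0.597 CPM. Epithelial markers summed to 61.5 to 133.7 CPM and neural markers to 182 to 407 CPM, of which miR-128-3p (pooled level 256 CPM) was the only one above 200 CPM. Experiment 2 had the higher A-form share at all 8 times for 64 members and the lower share at all 8 times for 0. The median difference was 0.45 on the log2 scale. This offset stands beside every mean below, so values are given for each experiment.

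At 0 h the A-form share ranged from 0 to 35.4%, with a median of 1.37% and quartiles of 0.479% and 4.33%. It was 10% or more for 11 members, 5% or more for 23, and under 0.5% for 28. Members ranked almost alike in both experiments (Spearman's rho across all members 0.98, a description, since both share the mapping and the miRNAs). Of 105 neighbours in the order, 97 overlapped over their 2 libraries, so the order is firm between distant ranks and not between adjacent ones. Share and abundance were not ordered alike (rho 0.04 across members).

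**Figure D1:**
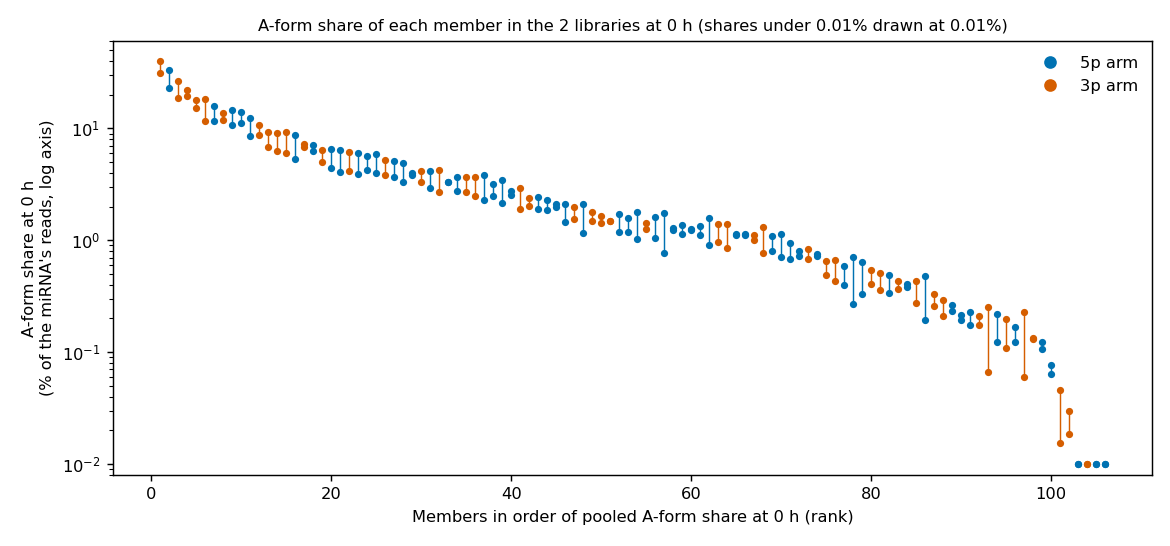
Each pair of joined points is 1 member, with the A-form share (% of that miRNA's reads, log axis) in the 2 libraries at 0 h, and members are ordered by their pooled share on the x axis. Blue marks 5p arms and orange 3p arms; shares run from 35.4% down to 0. Shares under 0.01% are drawn at 0.01%, and both colours occur along the whole order.

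miR-130b-3p had the highest share. Its A-forms made up 31% of reads at 0 h in experiment 1 and 39.8% in experiment 2. miR-125b-5p, the fibroblast-rich homologue of worm lin-4, followed with 22.8% and 33.2%. miR-28a-3p stood at 18.6% and 26.5%, miR-152-3p at 19.6% and 21.9%, and miR-652-3p at 15.3% and 17.8%. miR-140-3p, from a cartilage-linked hairpin, had 11.7% and 18.4%, let-7i-5p 11.7% and 16%, miR-128-3p 11.9% and 13.7%, let-7b-5p 10.7% and 14.6%, and miR-28a-5p 11.2% and 14%. The 2 libraries of neighbouring miRNAs overlapped along most of this list, whereas all 10 lay far above the median member.

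At the other end, 4 members had no A-form read at 0 h. They were miR-152-5p (0 of 4032 reads, which allows a share of up to 0.0744%), miR-145a-3p (0 of 7454, up to 0.0402%), miR-27b-5p (0 of 4169, up to 0.0720%) and miR-92a-1-5p (0 of 1114, up to 0.269%). These limits are 3 counts of the total and cover counting error only. Over all 16 libraries the first 3 had 5, 2 and 1 A-form reads. miR-143-3p, the abundant smooth muscle and mesenchymal miRNA at 135862 CPM, had 0.0187% and 0.0295%.

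Abundant miRNAs spanned nearly the whole range. miR-22-3p, the most abundant at 146237 CPM, had shares of 0.363% and 0.511% at 0 h. miR-99b-5p (91821 CPM) had 4.43% and 6.54%, and let-7f-5p 4.00% and 5.91%. miR-27b-3p had 1.55% and 1.99%, miR-26a-5p 1.04% and 1.62%, and miR-182-5p 1.98% and 2.09%. miR-21a-5p, an oncogenic miRNA induced by growth signals, had 0.175% and 0.226%, miR-92a-3p 0.210% and 0.293%, and miR-181a-5p 0.0637% and 0.0762%. A few miRNAs gave most A-form reads. miR-99b-5p held 19.1% of the members' A-form reads, miR-125b-5p 15.6%, let-7i-5p 10.1%, let-7f-5p 8.34% and miR-27b-3p 6.02%, which is 59.1% together. The members held 98.7% of all A-form reads and 98.8% of all miRNA reads.

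The choice of 200 CPM left out miRNAs that differ little from members. Just above it stood miR-19b-3p (200.2 CPM, 0.0660% and 0.254% at 0 h), miR-92a-1-5p and miR-17-5p (5.29% and 8.67%). Just under it stood miR-5099 (192 CPM, 4 A-form reads in all), miR-140-5p (187 CPM, 0.696% at 0 h) and miR-99b-3p (186 CPM), whose share of 23.1% would have placed it among the highest members. miR-132-3p, a growth-factor-responsive miRNA, stood at 36.2 CPM and 0.601%. miR-122-5p, the best-known target of adenylation, had 10 reads in all and 0 A-forms.

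The arm of the hairpin did not order the shares. The 60 members from 5p arms had a median of 1.34% at 0 h and the 46 from 3p arms 1.51%. Pooling reads, 5p arms had the higher A-form share, 3.59% against 1.27% (4 of the 5 largest contributors named above are 5p arms), whereas their pooled uridine share was lower, 2.77% against 7.34%. Shares of 5% or more were found in 10 of the 5p members and 13 of the 3p members.

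The arms of a hairpin usually differed. Of 16 hairpins with both arms among the members, the 5p arm was higher in all 16 libraries for 5, the 3p arm for 8, and the ranges overlapped for 3 (miR-322, miR-21a and miR-30a). The arm with more reads had the higher share at 0 h in 12 of 16. The 95% Wilson intervals of both arms were also apart in all 16 libraries for 11 of these 13, in 15 for miR-335 and in 6 for miR-92a-1. miR-125b-5p, which the hairpins miR-125b-1 and miR-125b-2 share, ranged from 22.8 to 38.2% over the libraries, against 0.991 to 1.87% for the 3p arm of miR-125b-1. That of miR-872 ranged from 2.27 to 5.57%, against 0.0564 to 0.462%, and that of let-7d from 2.06 to 4.94%, against 0.435 to 1.15%. The 5p arm of miR-145a ranged from 3.32 to 4.97%, while its 3p arm had at most 0.0353%.

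Among hairpins with the higher 3p arm, miR-152 had 19.1 to 25.3% on the 3p arm and at most 0.133% on the 5p arm. The 3p arm of miR-199a, a mesenchymal miRNA, ranged from 3.81 to 7.67%, against 0.199 to 0.648% for the 5p arm. miR-27b had 1.47 to 2.92% against at most 0.0440%. miR-92a-3p, which comes from 2 hairpins, had 0.210 to 0.413%, and the 5p arm of miR-92a-1 at most 0.203%, but that arm had 8 A-form reads in all and the difference was within counting error in most libraries. For miR-151 the 3p arm had 6.34 to 12.2% and the 5p arm 1.58 to 3.28%, and for miR-423 6.40 to 7.29% and 2.03 to 3.22%. For miR-28a both arms were high, 16.2 to 27.5% on the 3p and 9.42 to 14.7% on the 5p arm, without overlap.

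**Figure D2:**
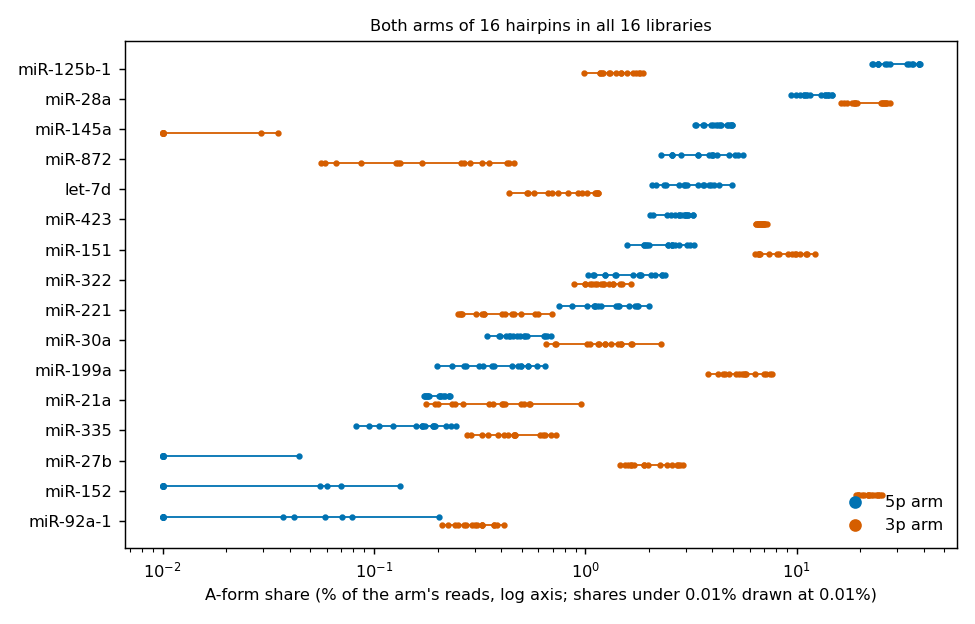
Each row is 1 hairpin, with the A-form share (% of the arm's reads, log axis) of its 5p arm (blue) and 3p arm (orange) in all 16 libraries; lines span the lowest to the highest library, and shares under 0.01% are drawn at 0.01%. The measured ranges do not overlap for 13 of the 16 hairpins, 5 with the 5p arm higher and 8 with the 3p arm higher, among them miR-92a-1, whose 5p arm has 8 A-form reads.

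Paralogs with an identical seed could differ widely. Of the members with a sequence, 42 fell into 13 groups of at least 2 with an identical seed, and in 10 groups the range of the highest member over the 16 libraries lay wholly above that of the lowest. Pooled at 0 h, miR-125b-5p stood at 28.4%, miR-351-5p at 2.82% and miR-125a-5p at 0.740%, a ratio of 38.4 between the outer pair, and the ranges of neighbours over the 16 libraries did not overlap. miR-92b-3p had 7.96%, miR-25-3p 3.50% and miR-92a-3p 0.254%, also without overlap. The same held for miR-152-3p (20.8%), miR-148b-3p (2.38%) and miR-148a-3p (1.19%), and for miR-130b-3p (35.4%) against miR-130a-3p (9.75%).

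Other families were closer. The 9 let-7 guides, which restrain proliferation genes, ran from 13.9% for let-7i-5p to 2.78% for let-7d-5p, and only 1 of 8 neighbouring pairs was free of overlap, that between let-7b-5p (12.8%) and let-7g-5p (5.25%). miR-99b-5p (5.51%), miR-100-5p (4.99%) and miR-99a-5p (3.29%) had overlapping ranges, although they kept this order within each of the 16 libraries, and so had miR-26a-5p (1.32%) and miR-26b-5p (1.25%). In the miR-181 family, miR-181b-5p (1.23%) and miR-181d-5p (1.12%) lay above miR-181c-5p (0.115%) and miR-181a-5p (0.0697%) in every library. Of the miR-30 family members with a sequence, miR-30c-5p (1.26%), miR-30a-5p (0.419%) and miR-30e-5p (0.168%) did not overlap. miR-30b-5p (1.37%) and miR-30d-5p (0.807%) had no sequence here, and the range of miR-30b-5p (1.18 to 10.5%) overlapped that of miR-30c-5p (1.18 to 4.62%). Paralogs this alike share most of their sequence, and how the authors assigned reads that match several miRNAs is not given in the sources used here, so differences between them carry that limit.

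**Figure D3:**
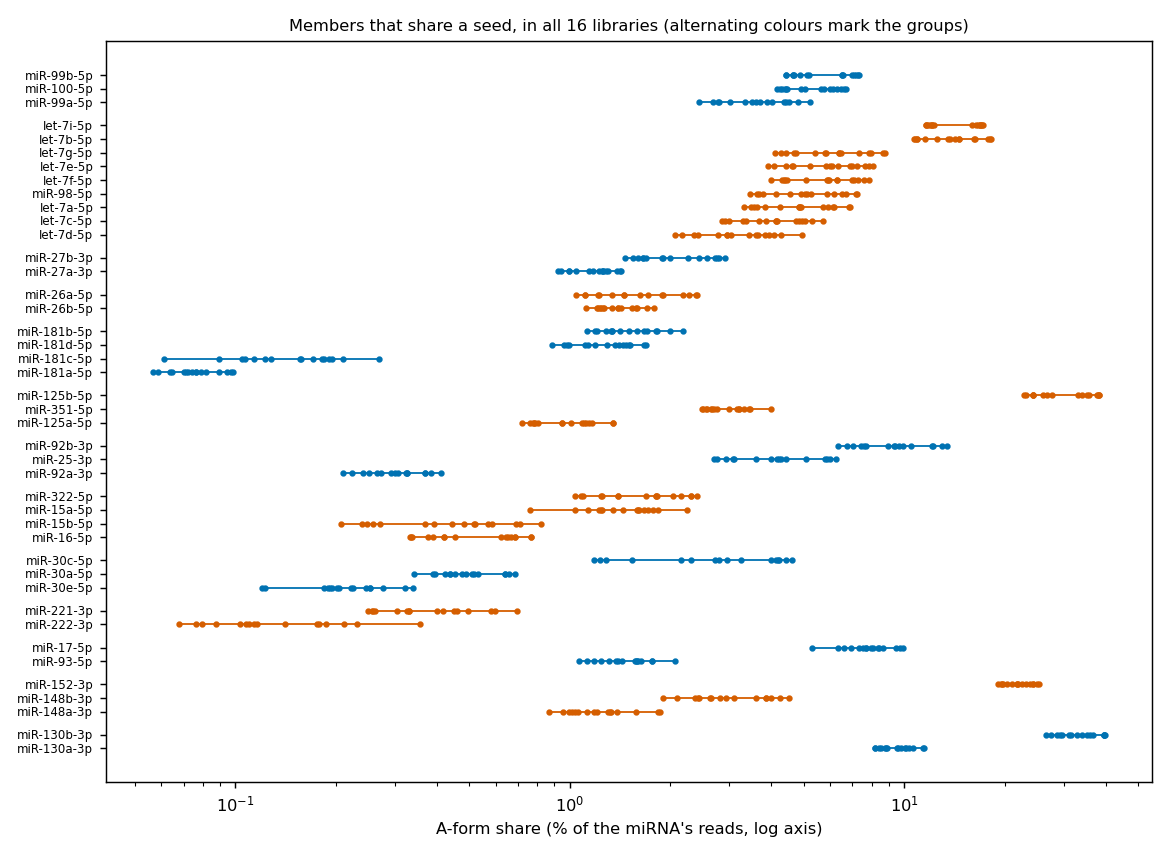
Each row is 1 member and each point the A-form share (% of its reads, log axis) in 1 of the 16 libraries; adjacent rows of 1 colour share a seed, and colours alternate between groups. miR-125b-5p, miR-351-5p and miR-125a-5p occupy separate ranges, while the members of the let-7 block other than let-7i-5p and let-7b-5p overlap.

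Sequence features shared by the members were few. The median share at 0 h was 3.16% for the 22 members that end in G, 1.37% for the 15 that end in A, 1.28% for the 42 that end in U and 1.10% for the 16 that end in C. The next base of the hairpin was known for 89 members. For 12 of them it is A in at least 1 hairpin, so that an added A would match the hairpin and count as templated. Their median share was 0.431%, against 1.37% for the other 77.

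With time in serum the members' pooled A-form share was higher in both experiments. In experiment 1 it was 2.07, 2.24, 2.19, 2.20, 2.23, 2.43, 2.61 and 2.67% at 0, 1, 2, 4, 6, 8, 10 and 12 h. In experiment 2 it was 2.93, 3.17, 3.22, 3.53, 3.59, 3.42, 3.92 and 3.45%. The mean was 2.5 ± 0.608% at 0 h and 3.06 ± 0.551% at 12 h (SD, n = 2), so the difference is smaller than the spread between experiments but present within each. With each member weighted by its reads at 0 h, the share at 12 h was 2.61% and 3.61%, again higher than at 0 h in both experiments. The median member moved from 1.22 to 1.70% in experiment 1 and from 1.63 to 2.17% in experiment 2.

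**Figure D4:**
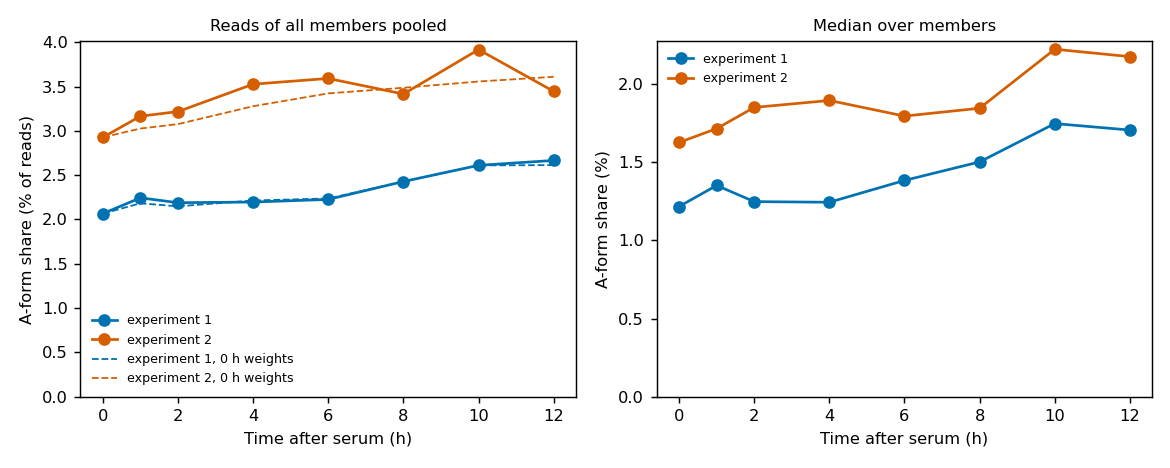
The left panel plots the members' pooled A-form share (% of reads) against hours in serum for experiment 1 (blue) and experiment 2 (orange), with dashed lines for members weighted by their reads at 0 h, and the right panel the median over the members. Both experiments end higher than they start (2.07 to 2.67% and 2.93 to 3.45% pooled), and experiment 2 lies above experiment 1 at every time.

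Between 0 and 12 h the share was higher in both experiments for 74 members, lower in both for 10, and mixed or at 0 for 22. It gained more than 1 percentage point in both experiments for 22. Gains ranked alike in the experiments (rho 0.83 across members, a description). Gains in points ranked with the share at 0 h (rho 0.52). Members whose level fell tended to have larger log2 changes of the share (rho -0.34 across 95 members; a miRNA's level is also the denominator of its share).

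Changes were tested with edgeR's quasi-likelihood test on A-form reads relative to all reads of the same miRNA, for the 135 miRNAs with a mean of 10 or more A-form reads per library, of which 95 are members, and p-values were adjusted by Benjamini-Hochberg over the 135. At 12 h against 0 h, 8 members rose and 0 fell, while of all 135 miRNAs 5.93% rose and 0.741% fell. With the experiment as a block, which pairs the libraries of a run, 57 members rose and 3 fell, against 47.4% and 3.7% of all tested. The linear trend per hour called 23 members higher and 2 lower, against 20.7% and 2.96% of all tested. With the block it called 61 higher and 5 lower, against 54.8% and 5.19%. All 25 members called without the block were also called with it. Most of the tested miRNAs are members (95 of 135), so these backgrounds include the members' own calls. Whether members were called more often than the other tested miRNAs was not tested.

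Most tested miRNAs moved up together. The median log2 change at 12 h was 0.32 over all tested miRNAs and 0.38 over the members. When each library's shares were centred on their median, the trend called 14 members higher and 17 lower (10.4% and 16.3% of all tested, 26.7% in either direction), and the 12 h comparison 2 higher and 5 lower (1.48% and 5.19%). With centring and block together the trend called 18 higher and 24 lower (14.1% and 23.0% of all tested). Without replicate 2 of 0 h, none of the 8 members passed at 12 h (0 called, 21 with an unadjusted p under 0.05). Without replicate 1 of 0 h 2 passed, without replicate 1 of 12 h 3, and without replicate 2 of 12 h 4. These fits had no block, and each left 1 library, from 1 experiment, at 0 h or at 12 h. The offset between experiments then enters the comparison. Of the 25 trend calls, 16 stayed without each library in turn. Within 1 experiment the trend called 51 members higher and 4 lower in experiment 1, and 51 and 4 in experiment 2 (of all tested, 40.0% and 4.44% in experiment 1, or 44.4% in either direction, and 45.2% and 4.44% in experiment 2, or 49.6%). Of these, 47 were called in each. No slope differed between the experiments (0 of 135 called by edgeR, 8 with an unadjusted p under 0.05; 0 members called by DESeq2 or limma).

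The largest gain relative to its start was that of miR-30b-5p. Its share was 1.18, 1.20, 2.83, 4.82, 5.49, 6.64, 6.73 and 5.70% over the 8 times in experiment 1. In experiment 2 it was 1.57, 2.07, 4.22, 8.42, 10.0, 10.5, 9.89 and 8.51%. Every library from 2 h on lay above all libraries of 0 and 1 h, and the share was highest at 8 to 10 h. It rose by a log2 change of 2.36 ± 0.43 (SE; edgeR adjusted p = 0.00805) at 12 h, and by 1.99 after centring. Over the same time its level fell from 969 ± 33.6 to 352 ± 29.2 CPM (SD, n = 2), while its A-form reads went from 11.8 to 21.3 CPM in experiment 1 and from 14.8 to 28.2 CPM in experiment 2. At 12 h the library of experiment 1 held 152 A-forms among 2666 reads.

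miR-30c-5p, its relative, followed another course. Its share was 1.23, 1.18, 3.25, 4.43, 4.62, 4.12, 2.72 and 2.15% in experiment 1, and 1.28, 1.53, 4.23, 4.2, 4.0, 2.95, 2.80 and 2.31% in experiment 2. In both it was highest between 2 and 6 h and then declined, while the level went from 2432 ± 121 to 646 ± 89.5 CPM. Its A-form reads were 29.0, 60.9 and 15.2 CPM at 0, 2 and 12 h in experiment 1. In experiment 2 they were 32.2, 67.0 and 13.4 CPM, so at 12 h the share was higher with fewer A-form reads. The 12 h change of the share was 0.82 ± 0.23 (edgeR adjusted p = 0.0464) and its linear trend was not called (adjusted p = 0.403). Its templated extensions, reads lengthened as the hairpin encodes, went from 71.5 to 83.7% of its reads. The 12 h call was lost without any 1 of 10 libraries (adjusted p up to 0.264), under centring (0.47) and with DESeq2 (adjusted p = 0.0888) or limma (adjusted p = 0.0515).

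miR-191-5p, an abundant miRNA of proliferating cells, gained 5.61 points in experiment 1 and 4.52 in experiment 2. Its share was 6.33, 7.05, 5.65, 7.69, 8.82, 10.5, 11.4 and 11.9% in experiment 1 and 7.16, 7.60, 5.97, 8.62, 9.94, 10.8, 12.8 and 11.7% in experiment 2. Both dipped at 2 h and all libraries from 4 h on lay above all earlier ones. The trend was 0.082 ± 0.011 log2 units per hour (edgeR adjusted p = 1.41e-05), and 0.053 after centring (adjusted p = 0.00096). miR-191-5p had an offset between experiments of 0.11 on the log2 scale, against the median of 0.45.

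miR-125b-5p gained 4.88 and 4.92 points from a high base. It moved through 22.8, 24.3, 23.1, 24.2, 24.2, 26.1, 26.8 and 27.7% in experiment 1 and 33.2, 34.0, 35.1, 35.7, 38.2, 38.2, 37.8 and 38.1% in experiment 2. The experiments did not overlap, and the trend of 0.019 ± 0.017 per hour was called only with the block (adjusted p = 0.416 without it and 1.28e-06 with it). Centred on the library median the slope was -0.012 (adjusted p = 0.136; adjusted p = 0.0493 with the block as well), so relative to the median miRNA it did not gain.

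The other members with large gains in both experiments started between 6 and 22%. miR-328-3p gained 4.37 and 5.51 points, miR-92b-3p 3.70 and 3.67, miR-140-3p 2.94 and 2.59, and let-7b-5p 2.74 and 3.46. miR-532-5p gained 2.55 and 2.91 points, miR-152-3p 2.07 and 3.41, and miR-151-3p 1.90 and 3.10. Of these 7, miR-328-3p (trend 0.061 ± 0.015, edgeR adjusted p = 0.00516) and miR-92b-3p (0.065 ± 0.014, adjusted p = 0.0018) rose without the block. The other 5 were called with it, at adjusted p from 0.000297 (miR-152-3p) to 6.91e-09 (miR-151-3p). These are gains in share, and A-form reads were not higher at 12 h for all 7. Those of let-7b-5p fell from 218.4 to 161.0 CPM in experiment 1 and from 334.1 to 218.2 CPM in experiment 2. Its level also fell. A-form reads of miR-92b-3p (17.4 to 19.3 and 20.8 to 18.2 CPM) and miR-152-3p were higher in experiment 1 and lower in experiment 2. Those of miR-328-3p, miR-140-3p, miR-532-5p and miR-151-3p were higher in both.

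**Figure D5:**
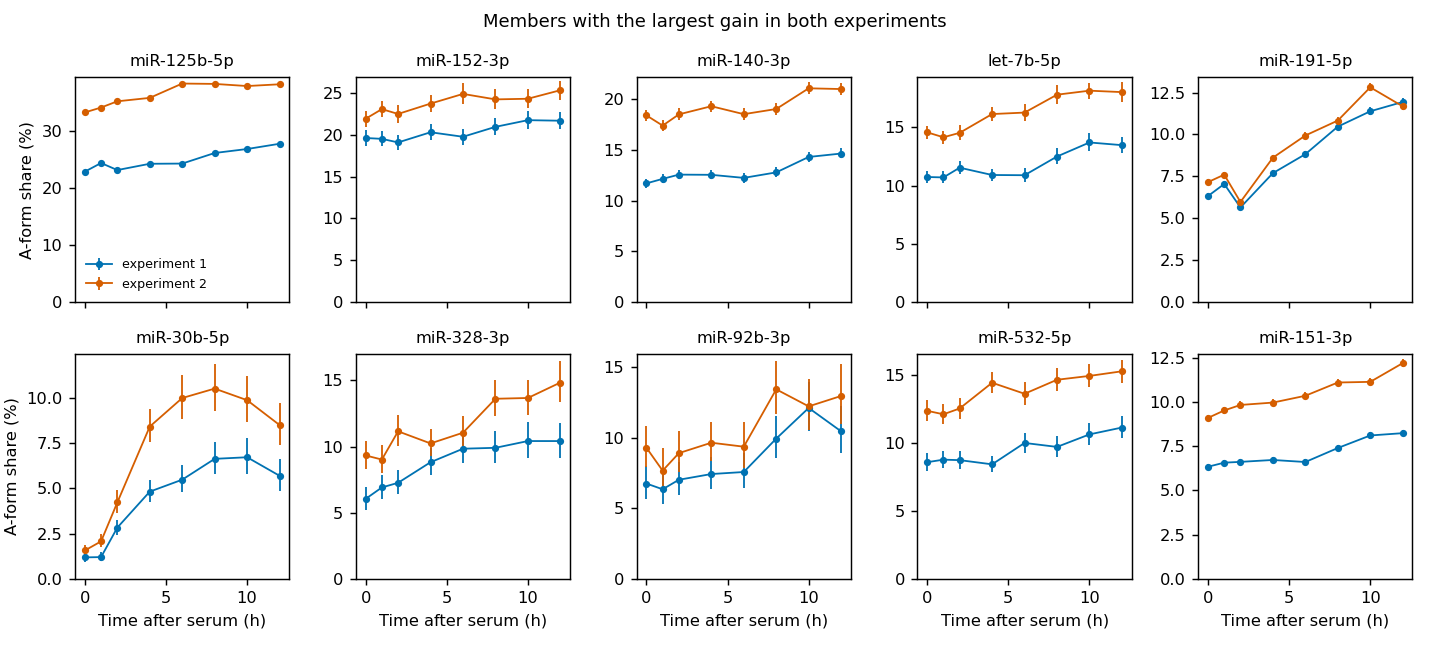
Each panel plots the A-form share (%) of 1 member against hours in serum, in experiment 1 (blue) and experiment 2 (orange); bars are 95% Wilson intervals of each library, which cover counting error only. miR-30b-5p starts at 1.18% and 1.57% and reaches 6.73% and 10.5%, while miR-125b-5p moves from 22.8 to 27.7% and from 33.2 to 38.1%.

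Among members with low shares, the steepest called trends after miR-30b-5p were those of miR-196b-5p, from the Hoxa cluster, miR-23a-3p, miR-199a-5p and miR-221-3p. miR-196b-5p went from 0.761 ± 0.0556% to 2.09 ± 0.357% (SD, n = 2), with a trend of 0.11 ± 0.019 per hour (edgeR adjusted p = 0.000126). In experiment 1 it had 17 A-forms among 2354 reads at 0 h and 31 among 1325 at 12 h. In experiment 2 it had 24 among 2997 and 24 among 1308, so there the share was higher with as many A-form reads and fewer reads in all. miR-23a-3p went from 0.569 ± 0.113% to 1.54 ± 0.462% (0.11 ± 0.019, adjusted p = 0.000146). miR-199a-5p went from 0.250 ± 0.0227% to 0.593 ± 0.0781% (0.11 ± 0.014, adjusted p = 5.52e-06). For all 3 the 12 h libraries lay above the 0 h libraries in both experiments, and the trends were still called after centring. At 12 h against 0 h the log2 changes were 1.44 ± 0.28 for miR-196b-5p, 1.43 ± 0.32 for miR-23a-3p and 1.24 ± 0.21 for miR-199a-5p.

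miR-125a-5p rose from 0.741 ± 0.0280% to 1.35 ± 0.00474% (trend 0.069 ± 0.0083, edgeR adjusted p = 5.52e-06). miR-143-3p went from 0.0187 to 0.0327% and from 0.0295 to 0.0578% (0.081 ± 0.021, adjusted p = 0.00664), a call lost without replicate 2 of 12 h (0.069, adjusted p = 0.0521). miR-181c-5p (0.073 ± 0.025, adjusted p = 0.0384) lost its call without any 1 of 10 libraries and after centring (0.041, adjusted p = 0.193). miR-221-5p (0.072 ± 0.017, adjusted p = 0.00353) lost it after centring (0.045, adjusted p = 0.0672).

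The 3p arms of the neighbours miR-221 and miR-222, growth-factor-induced miRNAs that target the cell cycle inhibitor p27, went opposite ways in A-form share. miR-221-3p stood at 0.330, 0.261, 0.326, 0.250, 0.417, 0.462, 0.596 and 0.696% in experiment 1 and at 0.258, 0.304, 0.257, 0.331, 0.402, 0.449, 0.497 and 0.580% in experiment 2. It rose by 0.10 ± 0.013 per hour (edgeR adjusted p = 5.52e-06). miR-222-3p stood at 0.211, 0.231, 0.114, 0.108, 0.116, 0.0678, 0.110 and 0.0873% in experiment 1 and at 0.175, 0.357, 0.141, 0.177, 0.186, 0.103, 0.0795 and 0.0762% in experiment 2. It fell, with a trend of -0.13 ± 0.026 (adjusted p = 0.00139). A-form reads of miR-222-3p changed little, from 2.35 to 2.10 CPM in experiment 1 and from 2.28 to 2.24 CPM in experiment 2. Its share was thus lower at 12 h with nearly as many A-form reads and more reads in all. Those of miR-221-3p went from 5.74 to 13.7 CPM and from 4.99 to 14.3 CPM. miR-221-3p lay above miR-222-3p at 0 h already, and the gap between them was wider at 12 h. Both trends stayed called without each library in turn, and the difference between the 2 slopes was not itself tested. miR-222-3p had 90.4% templated extensions at 0 h and 95.7% at 12 h, against 2.07% and 2.71% for miR-221-3p, and how a read with a templated and an added base was classed is not given in the sources used here.

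miR-146b-5p, a regulator of inflammatory signalling, was the other member that fell. It stood at 0.400, 0.391, 0.207, 0.117, 0.175, 0.129, 0.179 and 0.189% in experiment 1 and at 0.586, 0.578, 0.484, 0.363, 0.291, 0.301, 0.239 and 0.172% in experiment 2. The trend was -0.13 ± 0.032 per hour (edgeR adjusted p = 0.00516). Like miR-222-3p, it consisted mostly of templated extensions, 90.5% of reads at 0 h and 93.8% at 12 h. In experiment 1 alone the trend was -0.088 and was not called (adjusted p = 0.128). A-form reads of miR-146b-5p were few. They went from 1.47 to 1.54 CPM in experiment 1, where the lower share came with more reads in all. In experiment 2 they went from 3.85 to 1.05 CPM.

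The largest falls in percentage points gave fewer calls. miR-130b-3p, the member with the highest share, moved from 31 to 28.5% in experiment 1 and from 39.8 to 36.7% in experiment 2, with its lowest values at 8 h (26.6% and 32.8%). Its trend was -0.018 ± 0.012 per hour (edgeR adjusted p = 0.287), called with the block (adjusted p = 0.00227) and after centring (-0.049, adjusted p = 3.99e-05). miR-155-5p, a miRNA of immune cells and stimulated fibroblasts, started at 1.47% and 2.11% in the 2 experiments, reached its lowest values of 0.357% and 0.346% after 4 h, and ended with 1.13% and 0.903%. It was not called at 12 h (-0.83 ± 0.44, adjusted p = 0.350). Its level went from 83.8 ± 5.39 to 267 ± 44.2 CPM, and the whole course rests on 234 A-form reads. miR-130a-3p moved by -0.659 and -0.511 points, miR-218-5p by -0.618 and -0.576, and miR-30a-3p by -0.820 and -0.330, none of them called by the 12 h or trend test without centring. miR-27a-3p and miR-31-5p fell with the block and after centring, and not otherwise.

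Counts of called members are given by family beside all tested miRNAs, of which 20.7% rose without the block and 54.8% with it, and differences between families were not tested. All 9 let-7 guides gained in both experiments, by 0.765 to 3.10 points on average, and 0 of 9 was called for the trend without the block and 9 of 9 with it. Their median trend of 0.039 per hour was near the 0.031 of all members, and after centring 1 of 9 (let-7i-5p) was lower and 0 higher. Of the 5 miR-30 guides, all gained in both, with 1 trend called without and 4 with the block. Of 4 miR-181 guides, 3 rose, and after centring 0. Of 6 tested miRNAs described as growth-factor-induced, 2 rose (miR-221-3p and miR-221-5p) and 1 fell (miR-222-3p). Of 5 tested from the miR-23, miR-27 and miR-24 hairpins 2 rose (miR-23a-3p and miR-23b-3p), of 3 from the miR-199a and miR-214 hairpins 2 rose (both arms of miR-199a), and of 4 tested from miR-17-92 and its paralogs 0 rose without the block and 3 with it. Of 5 from the miR-15, miR-16 and miR-322 hairpins 0 was called in either fit. The trend call of miR-23b-3p was lost without replicate 2 of 12 h. That of miR-199a-3p was lost without the same library or without replicate 1 of 0 h.

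Uridine forms went the other way in the pooled reads. The members' pooled uridine share went from 5.10 to 4.64% in experiment 1 and from 4.73 to 4.06% in experiment 2. It was higher at 12 h in both experiments for 30 members and lower in both for 39, against 74 and 10 for A-forms. Among the 74 gaining A-forms in both, the uridine share was higher in both for 26 and lower in both for 24. A-forms made up 19.8% of the members' non-templated additions at 0 h in experiment 1 and 23.1% at 12 h, and 27.8% and 29.7% in experiment 2, where the highest value, 34.2%, came at 10 h.

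Measured against all non-templated additions of the same miRNA, 9 members had a rising A-form part and 3 a falling one (7.41% and 2.22% of all tested). With the block these were 30 and 8 (25.9% and 6.67%, 32.6% in either direction), and centred 13 and 16 (9.63% and 11.9%). The largest rises were miR-196b-5p (from 4.12 to 9.27% of its additions; 0.099 ± 0.019 per hour, edgeR adjusted p = 0.00203), miR-143-3p (0.149 to 0.300%; 0.092 ± 0.026, adjusted p = 0.027) and miR-199a-5p (1.62 to 3.38%; 0.091 ± 0.013, adjusted p = 0.000168). All 3 carry mainly uridine among their additions: uridine forms were 14.5%, 15.6% and 14.6% of their reads at 0 h. The call of miR-143-3p was lost without any 1 of 5 libraries (adjusted p up to 0.150, without replicate 2 of 12 h).

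The largest falls were miR-146b-5p (14.4 to 5.56%; -0.13 ± 0.035, edgeR adjusted p = 0.0266), miR-21a-5p (5.27 to 2.09%; -0.12 ± 0.017, adjusted p = 0.000168) and miR-30a-3p (45.7 to 21.1%; -0.10 ± 0.025, adjusted p = 0.0136). For miR-21a-5p the A-form share of all reads was flat, 0.201 ± 0.0359% at 0 h and 0.207 ± 0.00343% at 12 h, so it was its other additions that were more frequent. Its templated extensions went from 35.8 to 47.4% of reads. The fall of miR-30a-3p rests on few reads, 19 and 23 A-forms at 0 h and 11 and 21 at 12 h in experiments 1 and 2. The call of miR-146b-5p was lost without replicate 1 of 10 h or replicate 2 of 0 h or 1 h (adjusted p 0.0625 to 0.125). miR-191-5p (80.2 to 78.8% of additions) and miR-125b-5p (83.2 to 80.2%) had mostly A among their additions at both times. Neither was called with or without the block, and after centring miR-125b-5p was lower (-0.0099, adjusted p = 0.0114).

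The called rises were also set against the next base of the hairpin. Of the 9 tested members whose hairpin continues with A, 5 rose by the trend (miR-196b-5p, miR-23a-3p, miR-221-3p, miR-199a-5p and miR-872-5p), against 12 of 70 tested members whose hairpin continues with another base, of which 2 fell (miR-222-3p and miR-146b-5p). This split was looked at after the values were seen and has no test. For all 5 the templated extensions, among which single added A bases would be counted, were also higher at 12 h in both experiments. Those of miR-196b-5p were 15.1 ± 2.05% at 0 h and 18.2 ± 3.76% at 12 h, and those of miR-199a-5p 6.33 ± 0.10% and 8.98 ± 0.831% (SD, n = 2). Among all 12 members of this kind the templated extensions were higher in both experiments for 6 and lower for 4, and the A-form share was higher for 11. Of the called rises before a hairpin A, that of miR-872-5p was lost without 1 library or more. Of those before another base, let-7d-3p, miR-148a-3p, miR-186-5p, miR-199a-3p and miR-335-5p lost theirs in the same way.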

How the data were processed

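Small RNA libraries from 3T9 fibroblasts (2 at each of 8 times) were analysed from the deposited table of raw read counts, which the authors gave per miRNA and sequence class, per the file headers. Per the submitters' processing notes, CASAVA 1.8.0 was used. No source used here gives the aligner, miRBase release, genome build or the rule for reads matching several miRNAs, and class meanings were read from class names. Of 6511 entries, 1 identical duplicate was dropped. A miRNA's total is its reference, trimmed, and 3′ and 5′ extended reads, templated and non-templated, and the share is its A-form entry over that total.

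Shares were tested with edgeR 4.0.16 (limma 3.58.1, R 4.3.3) by quasi-likelihood F-tests on A-form counts with the log total as offset, on all 16 libraries, at a mean of 10 A-form reads or more per library, with Benjamini-Hochberg adjustment at 0.05. The standard error (SE) is the change over the square root of F. "Rose" and "fell" mean an adjusted p under 0.05. The script was tested on simulated data. Alternatives were DESeq2 1.42.0, limma on log2 shares (0.5 added to A-form reads and 1 to totals), other filters, centring on the library's median share, a denominator without trimmed reads, a replicate block and leaving out each library. Libraries held 5852087 to 7783249 reads. Intervals are 95% Wilson intervals for counting error only, since reads carry no molecular identifiers. The header puts each replicate number in its own run, and the design text names independent experiments. Deviations of same-numbered libraries from their time's mean correlated at 0.163 to 0.497 over 28 pairs of times, so the numbers pair the libraries.

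Named miRNAs are the 10 highest and 5 lowest shares at 0 h, the 10 most abundant, the 10 largest gains and 5 largest falls of the same sign in both experiments, the 10 largest called rises and 5 largest called falls, the 4 largest arm contrasts each way, the 8 largest seed groups, the 3 largest called changes each way among non-templated additions, the 3 miRNAs on each side of 200 CPM and 10 set by name. Members, lists and this rule were chosen with earlier results of these data known. Seeds and next bases come from RefSeq (GRCm38.p6), and host genes from GENCODE M21.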

Additional observations from a re-analysis of the deposited data

How the results depend on the processing

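The numbers pair the libraries (replicate block), and the block moved the counts of called members most. At 12 h it called 60 members against 8 without it (55 with only the 0 h and 12 h libraries, 32 with centring; 45.2% and 27.4% of all tested). For the trend it called 66 against 25 (42 with centring, where 14.1% of all tested rose and 23.0% fell), and for A-forms among non-templated additions 38 against 12. Both fits that joined the block to another choice, and the trend without the 0 h libraries, were chosen after seeing the data. Without the block, the 12 h comparison called 4 with no filter on low counts (0.877% of the 570 tested) and 5 with only the 0 h and 12 h libraries (4.44% of all tested). Each experiment alone called 55 trends (44.4% and 49.6% of all tested), and centring called 29 among non-templated additions. Leaving out 1 library at a time gave 0 to 8 members at 12 h, 16 to 31 for the trend (16 without replicate 2 of 12 h), 10 to 16 among non-templated additions and 0 for the slope difference.

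Signs turned for few miRNAs. The trend of miR-125b-5p was -0.012 centred, also with the block. That of miR-155-5p was 0.030 in experiment 1 alone, 0.031 without the 0 h libraries, and -0.030 to 0.013 when 1 library was left out, and that of miR-30c-5p was -0.0069 without the 0 h libraries. As medians over members the shares were 1.42% at 0 h and 1.94% at 12 h. The median share at 0 h was 2.69% without trimmed reads in the denominator, and for 3p arms 1.88% at 100 CPM and 1.70% at 500 CPM. The causes were not tested. Shares of members near 200 CPM rest on few reads: the widest 95% interval of a single library had a half-width of 2.17 points.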
